A study of Mus musculus with 51 samples.

Results

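The genes described here act at the start of meiosis in the mouse germ line. They are Stra8, Meioc and Ythdc2, which govern entry into meiosis, and Rec8, Rad21l, Smc1b and Stag3, which encode the subunits of meiotic cohesin. The list was drawn up from what these genes are known to do, at a time when earlier results of these data were known. All 7 were found among the 21938 protein-coding genes of the annotation (GENCODE M21, genome build mm10). For each gene, every deposited region that touched a promoter window, 1000 bp either side of any annotated transcription start, or the gene body was read in each table. Where several regions touched the promoter windows of a gene, the region with the highest mean level stands for the promoter.

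The series compared open chromatin and histone marks in male germ cells of strains and mutants that differ in PRDM9, the zinc-finger methyltransferase that places recombination hotspots, in HELLS, a SNF2-family chromatin remodeller, or in SPO11, the enzyme that makes meiotic DNA breaks. The B6-Prdm9CAST-KI strain (KI), which carries the CAST allele of Prdm9 on a B6 background, gave 2 ATAC-seq and 2 H3K9ac libraries, against 2 ATAC-seq and 3 H3K9ac libraries of C57BL/6J (B6). Hells CKO animals, a conditional knockout whose Cre driver the labels do not name, gave 3 ATAC-seq and 3 H3K4me3 libraries, against 2 ATAC-seq libraries and 1 H3K4me3 library of Hells wt. Spo11/Spo11 mutants gave 2 H3K4me3 libraries, against 1 of Spo11/+, and 1 H3K9ac library, which was set against B6. In (B6xCAST) F1 hybrids the CAST allele was set against the B6 allele within each animal's chromatin, in 2 ATAC-seq libraries and 1 H3K9ac library. All of these came from germ cells enriched from testes of males 12 to 14 days old. HELLS was precipitated from whole testis of KI males of the same age (2 libraries, with 1 IgG control and 1 input), and DMC1, the recombinase loaded on broken DNA ends, from whole testis of Hells CKO and Hells het males 6 weeks old (2 libraries of each genotype, deposited as 1 peak list per genotype). Of the 51 samples in the series, the ATAC-seq libraries of DBA/2J and of the Spo11 genotypes were not analysed here. Nor were the B6 libraries of H3K4me1, H3K27me3, H3K27ac, H2B120ac and H2A.Z, or the inputs of the Spo11 and Hells genotypes, analysed as libraries. The chromatin states used below are those that the labels of B6 histone libraries name.

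ATAC-seq measures how easily a transposase reaches DNA, and H3K4me3 and H3K9ac are histone marks of active promoters. A germ cell leaves mitosis for meiosis when retinoic acid induces Stra8, which encodes a transcriptional regulator of meiotic genes. MEIOC and the RNA helicase YTHDC2 form a complex that acts on transcripts and is needed for germ cells to leave the mitotic programme and carry on through meiotic prophase. Cohesin is a ring of a pair of SMC proteins, a kleisin and a STAG protein that holds sister chromatids together. In meiosis the kleisins REC8 and RAD21L, the SMC protein SMC1B and the STAG protein STAG3 take the places of mitotic subunits and build the axis along which chromosomes pair and recombine.

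In mm10 coordinates, Stra8 lies on the plus strand at chr6:34920163-34939344, Meioc on the plus strand at chr11:102663716-102682237, Rec8 on the plus strand at chr14:55618037-55625395, Stag3 on the plus strand at chr5:138280240-138312393, Rad21l on the minus strand at chr2:151645404-151668533 and Smc1b on the minus strand at chr15:85064689-85131964. The window of the Stag3 promoter is shared with Gpc2 and Gm43720, and that of Smc1b with Ribc2, so that signal there belongs to all of the genes that start in it.

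The promoters had in common a short motif, the CCAAT box, which the factor NF-Y is known to bind. In the RefSeq promoter table (mm10; 250 bases before to 50 after each start), 6 of the 7 genes had an entry, and CCAAT on either strand was found in all 6, against 37.4% of the 32544 promoters in the table. It occurred 4 times in Stra8, 3 times in Rec8, 2 times in Meioc and once each in Smc1b, Stag3 and Rad21l. The match of Rad21l lies 38 bp after its GENCODE start, which no region of that gene held, and the stretch before its predicted start has no CCAAT. One stretch of each of 5 promoters is shown because it holds the match, in capitals, which reads ATTGG where the box lies on the other strand. Each is written 5′ to 3′ along the gene's own strand: Stra8 at chr6:34920811-34920840, Meioc at chr11:102665464-102665493 and Stag3 at chr5:138280259-138280288, all on the plus strand, Smc1b at chr15:85132088-85132117 on the minus strand, and the first 86 bases of the Rec8 entry, which lie before its annotated exons, at chr14:55617916-55618001 on the plus strand, with 2 of its matches.
Stra8: ttcaCCAATgtccacgctccccATTGGcgc
Meioc: gcccATTGGctgggccgcgggCCAATgagg
Stag3: caaacgctcagCCAATggaaggggacatag
Smc1b: gcggagcagggatCCAATtccccgggcaac
Rec8: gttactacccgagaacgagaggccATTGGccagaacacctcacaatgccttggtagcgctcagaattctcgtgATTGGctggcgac

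The other motifs searched, on both strands, were found in few of these promoters or in none. The motif CNCCTCAG reported for STRA8 and MEIOSIN was in 0 of the 6 and in 7.99% of all promoters. The E-box CACGTG was in Stag3 alone among the 6 and in 7.17% of all promoters, the cAMP response element TGACGTCA in 0 of the 6 and 1.8%, the E2F motif GGCGGGAA in 0 of the 6 and 2.2%, and the GC box GGGCGG in Stag3 and Meioc and in 35.9% of all promoters. No 2 of these motifs share enough letters for one match to be counted as another. A match is a run of letters and no evidence of binding.

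Rad21l was the gene whose annotated start and chromatin lay apart. The start that GENCODE gives, at position 151668533 of chromosome 2, lies at the start codon, and RefSeq also holds predicted transcripts that begin 2089 bp upstream, at position 151670622. The ATAC region of the KI and B6 table, at chr2:151669527-151671471, the H3K9ac, the H3K4me3 and the F1 region all held the predicted start, and none of these 4 held the GENCODE start. The 250 bases before the predicted start had 62.8% G and C, 12 CpG and 5 GC boxes, whereas the RefSeq promoter entry at the GENCODE start had 29% G and C and 2 CpG; the median over all promoters was 53.0% and 7 CpG. Both stretches are shown because the open one differs from the annotated one in composition, the first at chr2:151670623-151670872 and the second, cut to bases outside annotated exons, at chr2:151668566-151668783, both read along the minus strand in mm10, with GC boxes (CCGCCC on this strand) in capitals.
Rad21l, before the predicted start: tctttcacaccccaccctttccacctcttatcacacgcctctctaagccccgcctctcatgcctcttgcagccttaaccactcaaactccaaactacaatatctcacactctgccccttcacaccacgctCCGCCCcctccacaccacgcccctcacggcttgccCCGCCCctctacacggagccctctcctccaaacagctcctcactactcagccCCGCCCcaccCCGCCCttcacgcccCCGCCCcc
Rad21l, before the GENCODE start: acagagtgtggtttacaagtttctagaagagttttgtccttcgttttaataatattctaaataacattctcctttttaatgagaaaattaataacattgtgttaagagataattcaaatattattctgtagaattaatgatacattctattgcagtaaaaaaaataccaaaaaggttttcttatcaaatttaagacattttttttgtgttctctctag

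Smc1b was the gene with marked sites inside its body. Both lie in introns on chromosome 15 and are described further on with their values: site 1, an H3K9ac region at chr15:85094062-85095665, and site 2, at chr15:85102321-85103430. For each, 300 bases around the middle of its overlap with the F1 region there are shown on the plus strand (chr15:85094912-85095211 and chr15:85102699-85102998). They are shown because, among the regions of the 7 genes, strains or alleles differed most at these sites. G and C made up 34.3% of the first and 38.3% of the second. A CCAAT box in the second is in capitals.
Smc1b site 1: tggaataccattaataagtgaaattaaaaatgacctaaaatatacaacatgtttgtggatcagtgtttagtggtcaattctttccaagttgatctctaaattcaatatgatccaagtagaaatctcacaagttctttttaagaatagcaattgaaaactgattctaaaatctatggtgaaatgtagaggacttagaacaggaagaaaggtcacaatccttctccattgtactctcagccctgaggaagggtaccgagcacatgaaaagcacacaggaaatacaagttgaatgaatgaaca
Smc1b site 2: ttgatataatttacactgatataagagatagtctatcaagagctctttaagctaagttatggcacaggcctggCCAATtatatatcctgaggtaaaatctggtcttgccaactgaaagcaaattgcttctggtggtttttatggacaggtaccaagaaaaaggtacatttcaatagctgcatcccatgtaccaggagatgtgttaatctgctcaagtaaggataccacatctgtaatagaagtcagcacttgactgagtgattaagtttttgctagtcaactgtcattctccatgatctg

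**Figure D1:**
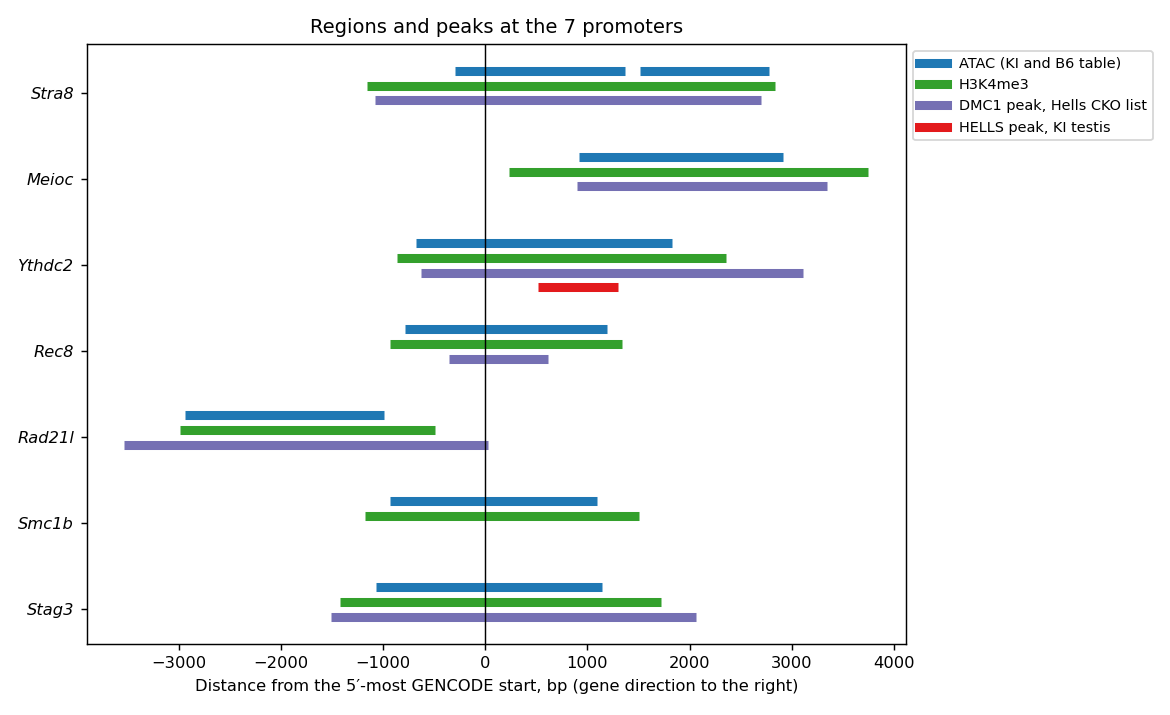
Position of the deposited regions and peaks around the annotated GENCODE start of each gene, in bp from the start and in the direction of transcription, with bars for ATAC regions of the KI and B6 table, H3K4me3 regions, DMC1 peaks of the Hells CKO list and HELLS peaks of KI testis; 0 marks the start farthest upstream. The ATAC and H3K4me3 regions of Rad21l lie upstream of its start and those of Meioc downstream, over another of its annotated starts, a DMC1 peak is present at 6 of the 7 genes and a HELLS peak at Ythdc2.

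The deposited tables held regions at these promoters with 1 exception. A region was present at all 7 in the ATAC table of KI and B6, in the H3K9ac table and in the H3K4me3 table, and at 6 of the 7 in the Hells ATAC table, which held none within 1000 bp of the Rad21l start. With windows of 2000 bp either side, the Hells ATAC data held 1 region at Rad21l, whose values are not described here. These regions were deposited as 1 set per table and not per group. The deposited segmentation of B6 chromatin into 11 states placed state 1, the state that took 25.5% of the promoter bases of all protein-coding genes, in the promoter windows of all 7, with shares that ran to 84.6% for Stra8 and down to 6.65% for Rad21l. State 6 took 51.6% to 95.1% of the 7 gene bodies, against 17.7% of the bodies of all protein-coding genes.

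Signal density, in CPM (a region's count divided by the TMM-adjusted sum of all region counts of its library) per kb of region, allows levels to be compared between genes. H3K4me3 density was highest at Ythdc2, with a median of 21.3 CPM per kb over the 7 libraries (lowest 16.5, highest 26.7), followed by Smc1b (median 16.1, lowest 12.7, highest 17.2), Meioc (14.7), Stag3 (13.8), Rad21l (12.4), Rec8 (9.43) and Stra8 (median 8.94, lowest 7.58, highest 9.66). The ranges of neighbours in this order overlapped, while those of Ythdc2 and Stra8, at its ends, did not. ATAC density in KI and B6 was highest at Stag3, with a median of 39.8 CPM per kb, and lowest at Stra8, with 11.7 CPM per kb. H3K9ac density ran to 15.3 CPM per kb at Ythdc2 and down to 5.20 CPM per kb at Rec8 and 5.91 CPM per kb at Stra8. The H3K9ac region of Rec8 was the widest of the 7 (5327 bp). Without division by width Rad21l was lowest, with a mean of 18.5 CPM, against 28.3 CPM at Stra8 and 29.9 CPM at Rec8. Stra8 thus had the lowest H3K4me3 and ATAC density of the 7. For H3K4me3 this rank rests on dividing by the width of the region, which was widest at Stra8 (3989 bp). For ATAC in KI and B6, Stra8 was lowest without that division too, with a mean of 20.3 CPM in its strongest promoter region. Its promoter windows held a second ATAC region with a mean of 16.4 CPM, which this rank leaves out.

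Total counts in regions were 27952728 to 34572929 per library in the KI and B6 ATAC table, 6416704 to 11352108 in the Hells ATAC table, 13195275 to 30233934 in the H3K9ac table, 13321006 to 42007820 in the H3K4me3 table and 3125377 to 5003968 per allele column in the F1 table. Germ-cell markers had promoter regions in all 4 tables of libraries (8 of 8 genes, a list that holds Stra8). Markers of Sertoli cells, the somatic cells that surround germ cells, were also present (6 of 7 genes in the ATAC tables, where Rhox5 had no region, and 7 of 7 in the H3K9ac and H3K4me3 tables), and which cells this signal came from was not tested. Since every library was made from cells in bulk, fewer cells of a type and less signal per cell cannot be told apart. The libraries of KI and of B6 were made in different library series, so that series and strain cannot be told apart in ATAC and H3K9ac. Among the H3K9ac libraries, B6 replicate 2, with 15058790 counts in regions where the other B6 libraries had 30233934 and 29242297, stood apart from both. Among the ATAC libraries, B6 replicates 1 and 2 differed from each other. Results that rest on these libraries are given with and without them. Since no deposited table reads transcripts, the loss of HELLS or SPO11 in the mutants was not checked here.

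**Figure D2:**
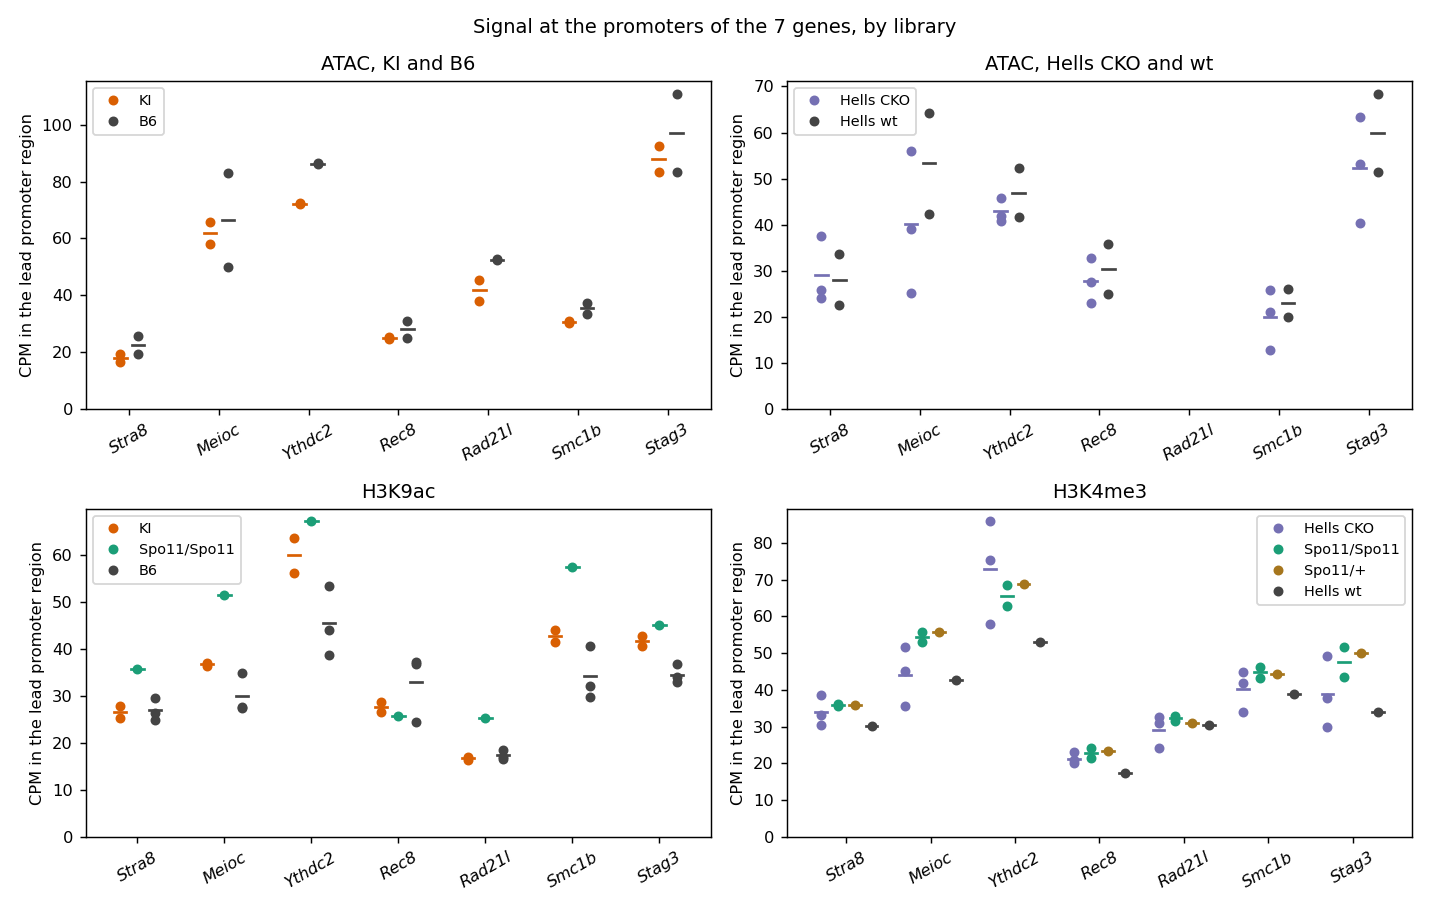
Level of each promoter in every library, in CPM, by assay and group, with 1 point per library and a line at each group mean. In ATAC of Hells CKO and wt the groups overlap at every promoter with a region (Rad21l has none within 1000 bp of its start). In H3K9ac the Spo11/Spo11 library lies above all B6 libraries at 6 of the 7 promoters.

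The comparison of KI with B6 asks which chromatin depends on the Prdm9 allele. No promoter of the 7 genes passed the test for a difference in ATAC signal between the strains. Stra8 had 19.4 and 16.6 CPM in KI, against 25.8 and 19.4 CPM in B6, so that the upper KI library met the lower B6 library. A second region downstream in the Stra8 promoter windows had 16.0 and 14.9 CPM in KI, against 19.4 and 15.5 CPM in B6. A small region inside the Stra8 gene had 4.48 and 4.03 CPM in KI, against 5.52 and 3.30 CPM in B6, and here the groups overlapped. Meioc had 65.8 and 58.1 CPM in KI, against 82.9 and 49.9 CPM in B6, with both KI libraries between the B6 libraries. Ythdc2 had 72.4 and 72.1 CPM in KI, against 86.4 and 86.3 CPM in B6, with KI lower in both libraries.

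For the cohesin genes no promoter passed either. The kleisin gene Rec8 had 24.5 and 25.2 CPM in KI, against 31 and 25.1 CPM in B6. Rad21l, the gene of the other meiotic kleisin, had 45.5 and 38.0 CPM in KI, against 52.3 and 52.8 CPM in B6, with KI lower in both. Smc1b, the gene of the meiotic SMC subunit, had 30.9 and 30.2 CPM in KI, against 37.2 and 33.5 CPM in B6, again without overlap. Stag3, the gene of the only STAG protein special to meiosis, had 92.5 and 83.4 CPM in KI, against 110.6 and 83.2 CPM in B6. The log2 fold changes (KI over B6, edgeR quasi-likelihood test with Benjamini-Hochberg adjustment over all regions) were all below 0 and small. That of Stra8 was −0.33 (SE 0.177, adjusted p = 0.498), that of Rad21l −0.33 (SE 0.159, adjusted p = 0.400) and that of Ythdc2 −0.26 (SE 0.162, adjusted p = 0.625), with the remaining 4 between −0.21 for Smc1b and −0.10 for Meioc. The edgeR and DESeq2 tests called 0 of the 7, and 0 had an unadjusted p under 0.05 in edgeR; of all regions 9.41% passed, and of all promoter regions 2.81%. The median of the 7 was −0.21, beside −0.15 over all promoter regions and 0.02 over all regions.

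Most of these values moved with the B6 libraries. Leaving out 1 of the 2 left a single B6 library, so that the spread came from KI alone, and effect sizes alone are given here. Without B6 replicate 2 the log2 fold change was −0.35 for Rad21l, −0.44 for Meioc, −0.34 for Rec8 and −0.31 for Smc1b. The 2 Stra8 promoter regions were then at −0.55 and −0.35. Without B6 replicate 1, Rad21l stayed at −0.33, while Meioc was at 0.32 and Stag3 at 0.09. Ythdc2 stayed between −0.28 and −0.25 whichever KI or B6 library was left out.

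For H3K9ac no promoter passed the test between KI and B6 either. Stra8 had 25.3 and 27.8 CPM in KI, against 24.9, 29.5 and 26.5 CPM in B6. Meioc had 36.4 and 37.0 CPM in KI, against 27.4, 34.8 and 27.7 CPM in B6. Ythdc2 had 63.6 and 56.2 CPM in KI, against 44.1, 53.5 and 38.6 CPM in B6. Both KI libraries thus lay above all B6 libraries for Meioc and Ythdc2, and within them for Stra8. Rec8 had 26.6 and 28.8 CPM in KI, against 37.3, 24.5 and 36.8 CPM in B6. Rad21l had 17.1 and 16.4 CPM in KI, against 16.6, 16.9 and 18.4 CPM in B6. Rec8 and Rad21l overlapped between the strains. Smc1b had 44.0 and 41.5 CPM in KI, against 32.0, 40.6 and 29.8 CPM in B6, and Stag3 had 40.6 and 42.8 CPM in KI, against 34, 36.7 and 32.8 CPM in B6. For these 2 genes KI was above all B6 libraries.

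The log2 fold changes of H3K9ac (KI over B6) were 0.40 for Ythdc2 (adjusted p = 0.233), 0.33 for Smc1b (adjusted p = 0.291), 0.29 for Meioc (adjusted p = 0.298) and 0.27 for Stag3, against −0.02 for Stra8, −0.05 for Rad21l and −0.25 for Rec8, in edgeR's quasi-likelihood test. edgeR called 0 of the 7 promoters and 0 had an unadjusted p under 0.05, while 4.14% of all promoter regions passed. The median of the 7 was 0.27, beside −0.09 over all promoter regions. Without B6 replicate 2, which had the highest B6 level for 5 of the 7 genes and the lowest for Rec8, 5 promoters passed: Ythdc2 (0.53), Smc1b (0.47), Meioc (0.41) and Stag3 (0.32) were higher in KI and Rec8 (−0.42) was lower. In that setting 10285 of 19974 promoter regions passed, 3750 of them higher and 6535 lower in KI, against 826 with all libraries. Summed H3K9ac over the germ-cell marker promoters was 305 to 313 CPM in KI and 221 to 280 CPM in B6, and its part in these values was not tested.

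Inside Smc1b, in contrast, H3K9ac was higher in KI. Site 1 had 8.84 and 11.3 CPM in KI (191 and 187 counts), against 0.613, 2.52 and 0.489 CPM in B6 (19, 40 and 15 counts). The means were 10.1 ± 1.76 CPM in KI (SD, n = 2) and 1.21 ± 1.14 CPM in B6 (SD, n = 3), and every KI library lay above every B6 library. Its log2 fold change was 3.14 (SE 0.722, adjusted p = 0.0499, edgeR), just past the threshold of 0.05, in a table where 12.3% of all regions passed and 12.1% passed as higher in KI. Site 2 had 4.26 and 5.69 CPM in KI (92 and 94 counts), against 0.387, 1.76 and 0.261 CPM in B6 (12, 28 and 8 counts). Its log2 fold change of 2.71 (SE 0.824) did not pass in edgeR's test (adjusted p = 0.119). With DESeq2 both passed, at 3.12 for site 1 (adjusted p = 3.2e-04) and 2.70 for site 2 (adjusted p = 0.0217). Such regions were found inside other genes of these pathways too. Of 47 H3K9ac body regions of 20 genes of mitotic cohesin and its regulators, edgeR called 5 higher in KI and 0 lower. Of 50 in 24 other regulators of meiotic entry, it called 4 higher and 0 lower.

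B6 replicate 2 held the highest B6 level at both sites. Without it the log2 fold change was 4.17 at site 1 (adjusted p = 2.3e-14 in edgeR's test) and 3.91 at site 2 (adjusted p = 1.2e-10). Site 1 did not pass without any other single KI or B6 library: the adjusted p was 0.121 without B6 replicate 1, 0.129 without B6 replicate 3, 0.174 without KI replicate 1 and 0.306 without KI replicate 2, in edgeR's test, at log2 fold changes of 2.74 to 3.30. It did not pass either when counts were scaled by library size alone (adjusted p = 0.0654, edgeR) and passed when the KI and B6 libraries alone were fitted (adjusted p = 0.0287, edgeR). The single Spo11/Spo11 library had 2.52 CPM at site 1 (33 counts) and 0.841 CPM at site 2 (11 counts), level with the highest B6 library at site 1 and within the range of B6 at site 2. Site 1 and site 2 lay wholly in state 6 of B6 chromatin and overlapped no DMC1 peak of either Hells genotype and no HELLS peak of KI testis. The ATAC table of KI and B6, the Hells ATAC table and the H3K4me3 table held no region at either site, and no other body region of the 7 genes was in the H3K9ac table.

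**Figure D3:**
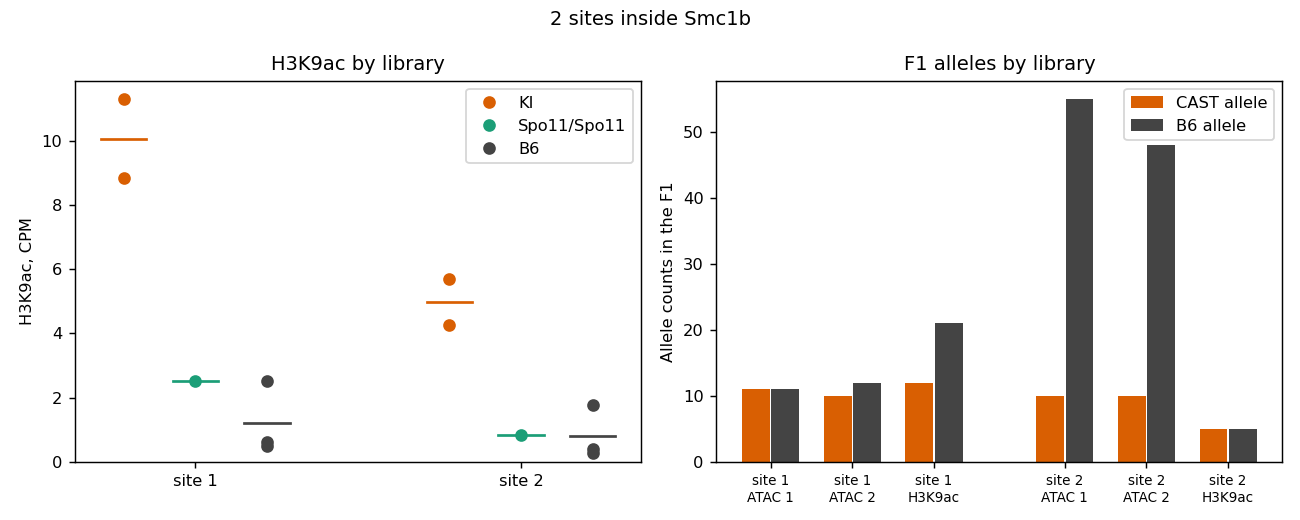
Left, H3K9ac at the 2 intronic Smc1b sites in CPM, with 1 point per library of KI, Spo11/Spo11 and B6 and a line at each mean; right, counts of the CAST and the B6 allele at the same sites in each F1 library. Both KI libraries lie above all B6 libraries at both sites, and at site 2 the ATAC libraries of the F1 hold 10 CAST counts each against 55 and 48 B6 counts.

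The single Spo11/Spo11 H3K9ac library asks whether the mark at these promoters depends on meiotic breaks. It had 35.8 CPM at Stra8, 51.5 CPM at Meioc, 67.3 CPM at Ythdc2, 25.3 CPM at Rad21l, 57.5 CPM at Smc1b and 45.1 CPM at Stag3, each above all 3 B6 libraries, and 25.6 CPM at Rec8, within the B6 range. The log2 fold changes (Spo11/Spo11 over B6) were 0.78 for Meioc (unadjusted p = 0.0073 in edgeR's test), 0.75 for Smc1b, 0.57 for Ythdc2, 0.55 for Rad21l, 0.41 for Stra8, 0.39 for Stag3 and −0.36 for Rec8. None passed with adjustment (adjusted p = 0.924 for each), and 0.0% of all regions did; 5 of the 7 and 3616 of the 91909 regions had an unadjusted p under 0.05, and DESeq2 called 16 regions in all and none of these. The median of the 7 was 0.55, beside 0.07 over all promoter regions. The lone library was taken to vary as the replicated groups do. It came from another library series than all B6 libraries, so that series and genotype cannot be told apart here either.

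Other genes of these pathways had higher medians than all promoters as well. Over 20 genes of mitotic cohesin and its regulators the median log2 fold change was 0.38, with 6 at an unadjusted p under 0.05, and over 24 other regulators of meiotic entry it was 0.22, with 7. Summed H3K9ac over the germ-cell marker promoters was 356 CPM in Spo11/Spo11, against 221 to 280 CPM in B6, and its part in these values was not tested. Whichever B6 library was left out, the log2 fold change of Rec8 stayed below 0 (−0.53 to −0.26). Those of the other promoters of the 7 genes stayed above 0. Without B6 replicate 2 all 7 promoters passed, in a fit where 6113 of 19974 promoter regions did, 3724 of them higher in Spo11/Spo11.

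H3K4me3, the promoter mark with libraries of both Spo11 genotypes, gave log2 fold changes near 0 between them. Meioc had 52.9 and 55.7 CPM in Spo11/Spo11, against 55.7 CPM in Spo11/+, and Smc1b had 46.2 and 43.3 CPM in Spo11/Spo11, against 44.2 CPM in Spo11/+. Stra8 had 35.7 and 36.0 CPM in Spo11/Spo11, against 35.8 CPM in Spo11/+. The log2 fold changes of the 7 (Spo11/Spo11 over Spo11/+) ran from −0.07 to 0.06. edgeR called 0 of the 7 and 0.0% of all regions, 159 regions had an unadjusted p under 0.05, and DESeq2 called 5. The H3K9ac library was set against B6 and the H3K4me3 libraries against Spo11/+, so that the difference between the marks was not tested.

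The comparison of Hells CKO with Hells wt asks which chromatin depends on the remodeller. ATAC signal at the promoters overlapped between the genotypes. Stra8 had 37.6, 24.2 and 25.7 CPM in CKO, against 33.5 and 22.6 CPM in wt. Meioc had 56.0, 39.1 and 25.1 CPM in CKO, against 64.3 and 42.4 CPM in wt, with CKO replicate 3 lowest. Ythdc2 had 45.9, 40.9 and 42.0 CPM in CKO, against 52.3 and 41.6 CPM in wt. In all 3 entry genes the first CKO and first wt library, which share a library series, were the highest of their groups. Rec8 had 32.7, 23.1 and 27.5 CPM in CKO, against 35.8 and 25 CPM in wt. Smc1b had 25.8, 21 and 12.9 CPM in CKO, against 26.1 and 19.9 CPM in wt, and Stag3 had 63.3, 53.2 and 40.4 CPM in CKO, against 68.4 and 51.4 CPM in wt. CKO replicate 3 was again the lowest for Smc1b and Stag3. For Rec8, Smc1b and Stag3, too, the first CKO and first wt library were the highest of their groups.

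The log2 fold changes (CKO over wt) were −0.41 for Meioc, −0.20 for Smc1b, −0.19 for Stag3, −0.13 for Ythdc2, −0.12 for Rec8 and 0.07 for Stra8, each with an adjusted p of 1 in edgeR's test. edgeR and DESeq2 called 0 of the 6 and 0 had an unadjusted p under 0.05 in edgeR, while 0.382% of all regions and 0.134% of all promoter regions passed. The median of the 6 was −0.16, beside −0.05 over all promoter regions. The weaker regions did not pass either: the second Stra8 region was at −0.10, a region inside Stra8 at −0.07, one inside Meioc at −0.22, and one at the downstream end of Rec8, near Ipo4, at 0.24. Within the library series that CKO and wt share, the log2 difference of Meioc was −0.20 in one and −0.12 in the other, and that of Stra8 0.16 and 0.10. Summed ATAC signal over the germ-cell marker promoters was 160 to 317 CPM in CKO and 216 to 341 CPM in wt, and its part in these values was not tested.

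In H3K4me3, too, no promoter passed the test between the Hells genotypes. Stra8 had 38.5, 33.2 and 30.4 CPM in CKO, against 30.3 CPM in wt. Meioc had 51.5, 45.2 and 35.6 CPM in CKO, against 42.7 CPM in wt. Ythdc2 had 85.9, 57.9 and 75.3 CPM in CKO, against 52.9 CPM in wt, and here all CKO libraries were above the wt library. Rec8 had 23.1, 20 and 20.8 CPM in CKO, against 17.4 CPM in wt. Rad21l had 30.9, 32.5 and 24.1 CPM in CKO, against 30.4 CPM in wt. Rec8 was higher in all CKO libraries and Rad21l was not. Smc1b had 44.8, 41.9 and 34 CPM in CKO, against 38.8 CPM in wt, and Stag3 had 49.3, 37.7 and 29.9 CPM in CKO, against 33.9 CPM in wt, so that for both the wt library lay among the CKO libraries.

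The log2 fold changes (CKO over wt) were 0.47 for Ythdc2 (adjusted p = 0.414), 0.30 for Rec8, 0.20 for Stag3, 0.17 for Stra8, 0.05 for Meioc, 0.05 for Smc1b and −0.06 for Rad21l in edgeR's test, with a median of 0.17 beside 0.26 over all promoter regions. edgeR called 0 of the 7, and 0 had an unadjusted p under 0.05, while 11.7% of all regions passed and 2.97% of all promoter regions. Against all libraries with HELLS, that is the mean of wt, Spo11/+ and Spo11/Spo11, the values were 0.23 for Ythdc2 (adjusted p = 0.403), −0.20 for Meioc and −0.15 for Stag3, with the others between −0.10 and 0.02. Again 0 of the 7 passed in edgeR or DESeq2, where 18.9% of all regions and 8.33% of all promoter regions did, and 0 had an unadjusted p under 0.05. Both comparisons share the CKO libraries and the wt library.

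Ythdc2 was the one promoter whose call turned on a single H3K4me3 library. Without CKO replicate 2 it passed in edgeR's test, at 0.65 against wt (adjusted p = 0.0413) and at 0.41 against all libraries with HELLS (adjusted p = 0.0409). In that setting 2854 of 18681 promoter regions passed against wt, 2286 of them higher in CKO, and 4733 against all libraries with HELLS, 4004 of them higher, so that 1 of 7 is not far from the share of all promoters. CKO replicate 2 is also the only CKO library that shares a library series with the wt library, and between these 2 the log2 difference was 0.13. Summed H3K4me3 over the Sertoli marker promoters was 527 to 770 CPM in CKO, 454 to 472 CPM in Spo11/Spo11, 399 CPM in Spo11/+ and 482 CPM in wt, and over the germ-cell marker promoters 229 to 356 CPM in CKO, 347 to 353 CPM in Spo11/Spo11, 374 CPM in Spo11/+ and 267 CPM in wt. Their part in the values of the 7 genes was not tested.

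**Figure D4:**
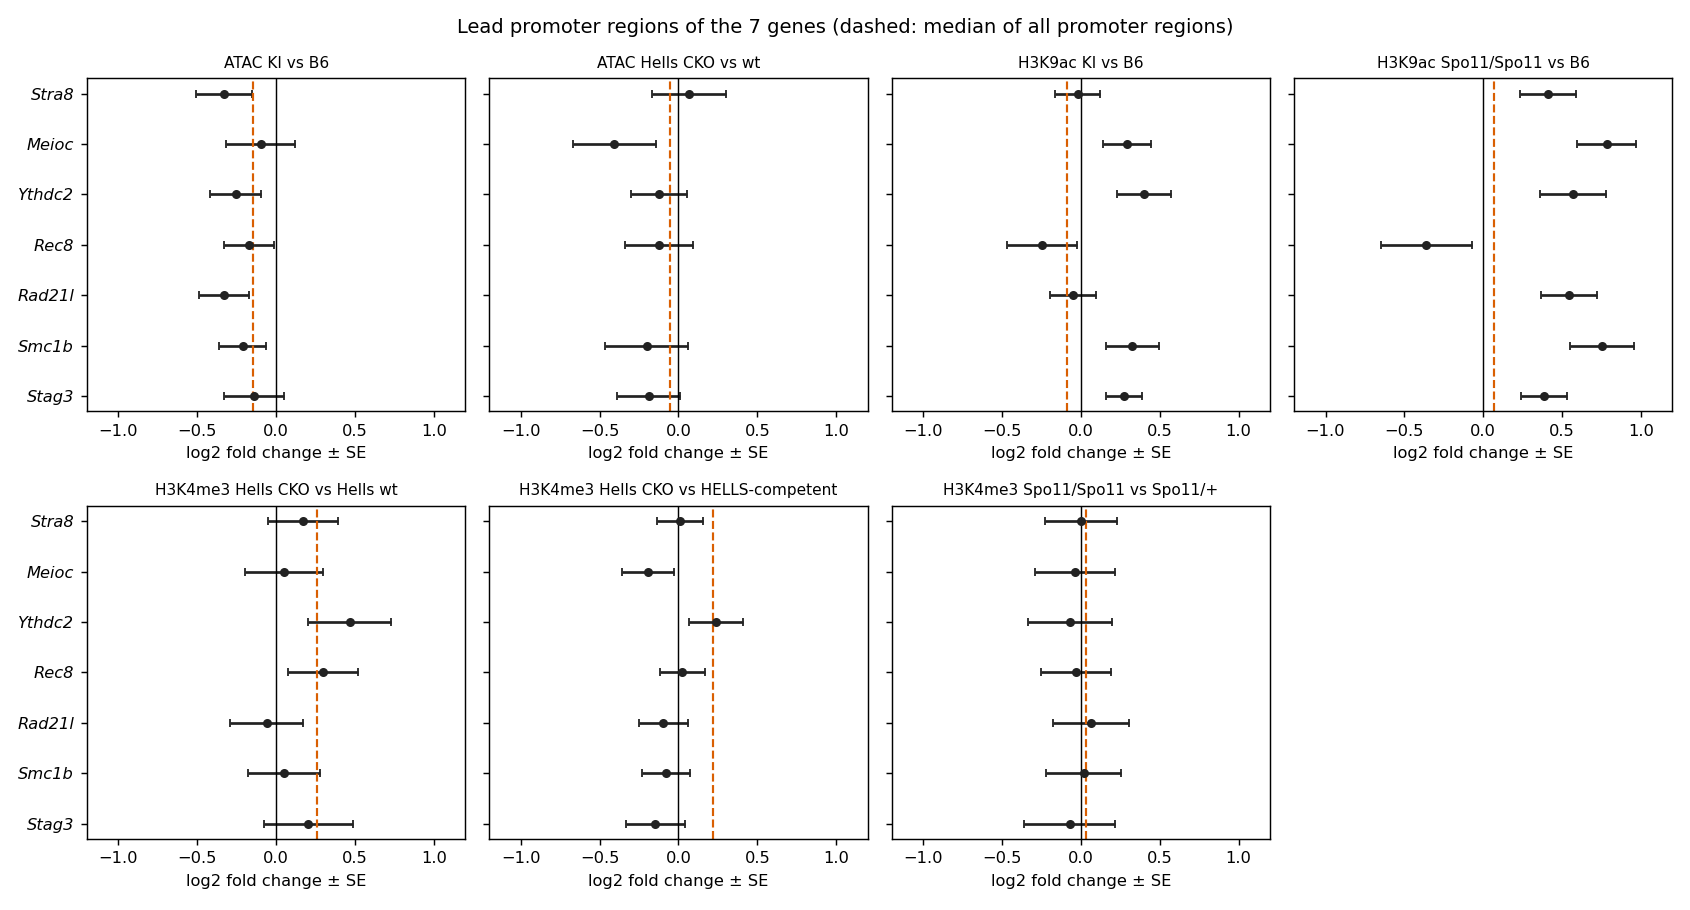
Log2 fold change of each promoter in every comparison, with bars of 1 SE, the first group named on each panel over the second, and the dashed line the median over all promoter regions. The values lie between −0.41 (Meioc, Hells ATAC) and 0.78 (Meioc, H3K9ac in Spo11/Spo11), and none passes the test.

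DMC1 peaks lay at most of these promoters in Hells CKO testis and at none of them in Hells het testis. The list of Hells CKO had a peak at 6 of the 7, all but Smc1b, and the list of Hells het had a peak at 0 of the 7; the labels tie that list to the het samples, although it was named for wild type. Over all protein-coding genes 40.3% had a CKO peak at a promoter and 7.72% a het peak, and 34.6% had a CKO peak and no het peak, as these 6 do. Among genes with state 1 in a promoter window, as all 7 have, 58.6% had a CKO peak and 50.3% a CKO peak with no het peak. The CKO peaks were 3778 bp wide at Stra8, 2446 bp at Meioc, 3736 bp at Ythdc2, 969 bp at Rec8, 3563 bp at Rad21l and 3568 bp at Stag3, so that Rec8 had by far the narrowest. The peak at Rad21l reached over its GENCODE start and its predicted start. The CKO peak nearest to Smc1b lay 166127 bp away. The nearest het peak was between 16412 bp (Rec8) and 165253 bp (Rad21l) from the start. With 1 list per genotype, taken from whole testis, no test could be made, and Smc1b, the gene without a peak, had H3K4me3 and ATAC density within the range of the other 6.

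Peaks were common in the CKO list at other genes of these pathways too. Of the 20 genes of mitotic cohesin and its regulators, 17 had a CKO peak and 8 a het peak, and of the 24 other regulators of meiotic entry 16 had a CKO peak and 2 a het peak. Where at least 50% of a peak had to lie within the promoter windows, 4 of the 7 genes had a CKO peak, as did 15 of the 20 and 15 of the 24. The share over all protein-coding genes was not taken under this rule, so that these counts cannot be set against it.

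HELLS itself was found at the Ythdc2 promoter and at none of the other 6, beside 6.73% of all protein-coding genes. Among genes with state 1 in a promoter window, as all 7 have, 9.94% had a HELLS peak at a promoter. The peak lay at chr18:44828266-44829043, 520 bp downstream of the start at the head of the gene, which spans chr18:44827746-44889724 on the plus strand. It held 80 and 67 counts in the HELLS libraries of KI testis, against 15 counts in the IgG control and 21 in the input. The mean HELLS count was 4.9 times the IgG count, beside a median of 6.33 over all peaks of the list, and 3.5 times the input count, beside a median of 3.59. These are ratios of raw counts, with no allowance for the depth of the libraries. Of all peaks in the list 30.7% had as low a ratio over IgG and 47.8% as low a ratio over input. By these ratios the Ythdc2 peak lay in the middle or lower part of the list. By raw count it lay higher: 75.3% and 76.7% of peaks had no more counts in the HELLS libraries. In the IgG control 84.7% had no more, and in the input 78.9%. Of the other pathway genes, Stag1, Wapl, Nipbl and Esco1 (4 of 20, regulators and subunits of mitotic cohesin) and Ythdf2 and Dazl (2 of 24, a reader of methylated RNA and an RNA-binding protein that germ cells need to become competent for meiosis) had a HELLS peak at a promoter.

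In the F1 both alleles share one nucleus and the same library, so that series and cell mixture are the same for both. The CAST allele of the promoters gave slightly fewer ATAC counts than the B6 allele in most cases. Ythdc2 had 444 CAST against 494 B6 counts in one library and 394 against 525 in the other, CAST shares of 47.3% and 42.9%. Its log2 fold change (CAST over B6) was −0.28 (SE 0.0901), and it passed with an adjusted p of 0.0429 in edgeR's quasi-likelihood test. Of all regions 13.7% passed, of autosomal regions 12.1%, and 6.48% of autosomal regions were lower on CAST. When regions with at least 10 allele counts were tested in place of 20 the adjusted p was 0.0729, with at least 50 it was 0.0114, and with each allele scaled by its own total 0.0282, all in edgeR's test. The libraries taken singly gave log2 ratios of −0.15 and −0.41, so that the size of the difference turned on the library.

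Rec8 had 90 CAST against 118 B6 counts and 62 against 95, CAST shares of 43.3% and 39.5%, the lowest among the promoters. Its log2 fold change of −0.49 did not pass (adjusted p = 0.110, edgeR). Rad21l had 280 CAST against 355 B6 counts in the first library and 280 against 234 in the second, with shares of 44.1% and 54.5% on opposite sides of 50%. Stag3 had 688 against 756 and 511 against 566, Smc1b 141 against 159 and 112 against 112, Stra8 213 against 248 and 173 against 164, and Meioc 251 against 266 and 214 against 208 CAST and B6 counts. These 4 promoters had CAST shares between 46.2% and 51.3% in each library, beside medians over autosomal regions of 49.6% and 50%. In the single H3K9ac library of the F1, all 7 promoters had fewer CAST than B6 counts, with shares between 43.9% for Rad21l and 48.0% for Meioc beside a median of 49.1% over autosomal regions, and no test could be made.

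At the intronic Smc1b site 2 the alleles differed most. The F1 region there, at chr15:85102215-85103376, had 10 CAST against 55 B6 counts in the first ATAC library, a CAST share of 15.4% (exact 95% binomial interval 7.63% to 26.5%), and 10 against 48 in the second, a share of 17.2% (8.59% to 29.4%). The log2 fold change was −2.35 (SE 0.364, adjusted p = 1.1e-04, edgeR), and 0.942% and 0.92% of autosomal regions had as low a share in the first and the second library. In H3K9ac the same region had 5 CAST and 5 B6 counts, a share of 50% with an interval of 18.7% to 81.3%, so that no allelic difference was detectable at this depth. Site 1, at chr15:85094457-85095744, had 11 CAST against 11 B6 counts and 10 against 12 in ATAC, and 12 against 21 in H3K9ac (36.4%, interval 20.4% to 54.9%). The intervals cover counting error only.

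**Figure D5:**
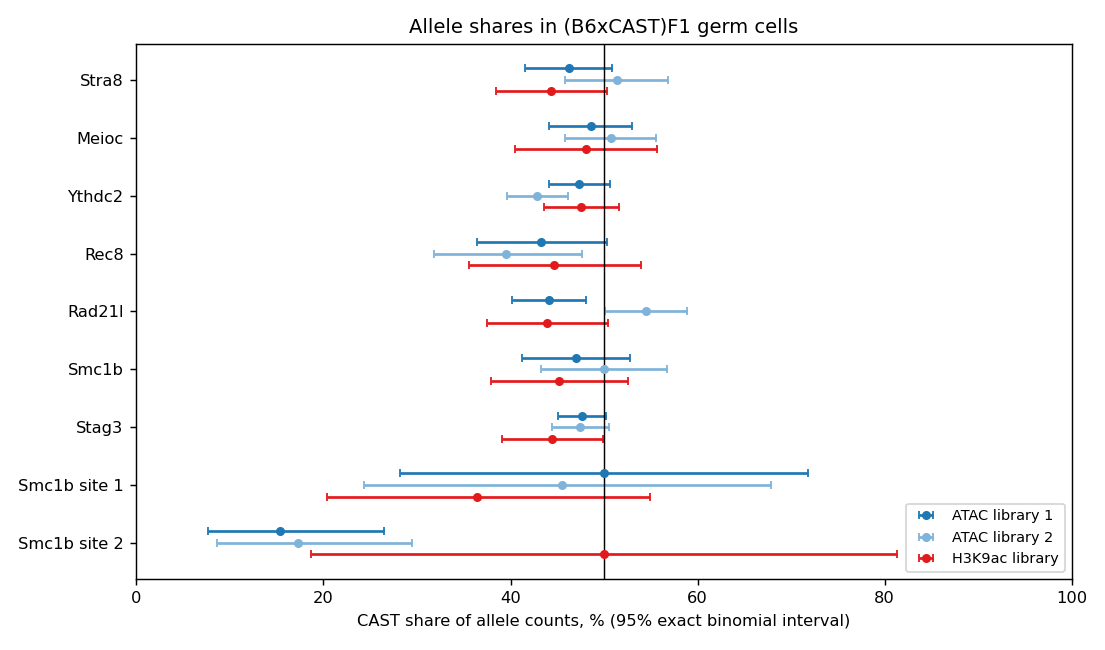
CAST share of allele counts, in percent, at the 7 promoters and the 2 intronic Smc1b sites in each F1 library, with exact 95% binomial intervals that cover counting error only. The promoters lie between 39.5% and 54.5%, and Smc1b site 2 lies at 15.4% and 17.2% in the ATAC libraries.

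Few promoters of the other genes of these pathways passed a test. In ATAC, edgeR called 0 of the 20 promoters of mitotic cohesin and its regulators and 0 of the 24 of other entry regulators between KI and B6, with medians of −0.17 and −0.19 (0 and 1 at an unadjusted p under 0.05), and 0 of each between Hells CKO and wt, with medians of −0.16 and −0.09 (0 and 0). In H3K9ac, edgeR called 0 of each between KI and B6, with medians of 0.15 and −0.06 (1 and 1). In H3K4me3 the medians in Hells CKO over wt were 0.46 and 0.35, above the 0.17 of the 7 genes, and edgeR called 0 of each (1 and 2 at an unadjusted p under 0.05). Against all libraries with HELLS, Cyp26a1, which encodes an enzyme that degrades retinoic acid, was the one promoter called in the lists, higher in CKO by 0.46 on the log2 scale (SE 0.137, adjusted p = 0.0369, edgeR).

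H3K4me3 regions inside gene bodies were found at some other genes of these pathways and at none of the 7. There were 34 at 13 of the 20 genes of mitotic cohesin and its regulators, and 37 at 12 of the 24 other entry regulators. The share of all protein-coding genes with such a region was not taken. In edgeR's test 17 of the 34 were lower and 0 higher in Hells CKO than in wt, and 24 were lower and 0 higher against all libraries with HELLS. Of 37 body regions of the other entry regulators, 8 were lower and 0 higher in CKO than in wt. Over all 78959 H3K4me3 regions tested, 18681 of them at promoters, 9223 were lower and 22 higher in CKO than in wt. Against all libraries with HELLS, 13138 were lower and 1807 higher. The share among body regions of all genes was not taken, so that the counts above cannot be set against it.

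Among the alleles of the F1, Dmrt1, a regulator of the choice between mitosis and meiosis, was higher on CAST by 0.56 on the log2 scale (adjusted p = 0.0128), and Pcgf6, a subunit of a repressive complex that holds germline genes silent, was lower on CAST, at −0.52 (adjusted p = 0.0355), both in edgeR's test. The X-linked promoters of Stag2, Hdac8 and Smc1a were lower on CAST by far more, between −8.77 and −7.30; males carry a single X chromosome, so that these values do not compare alleles. The 7 meiotic genes are all autosomal.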

How the data were processed

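Per the labels, ATAC-seq and MNase ChIP-seq used germ cells enriched from testes, and ChIP-seq after sonication used whole testis. What the authors deposited for ATAC, the histone marks and HELLS is raw counts of reads per region. Their F1 table holds deposited estimated counts per allele, rounded here. Peak lists and chromatin states were deposited without scores. The submitters' processing notes name CASAVA, BWA 0.7.15, Bowtie 0.12.9, MACS 1.4.2 and mm10, and which tool made which file is not given in the sources used here. Of the tables' columns, 10 could be tied to no sample by name and stayed out, as did 56 regions listed again in the Hells ATAC table. Replicate numbers only name libraries.

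All regions of a table were fitted together with edgeR 4.0.16 in R 4.3.3, by its quasi-likelihood F test after TMM scaling and filterByExpr, with Benjamini-Hochberg adjustment and a threshold of 0.05. The ATAC fits held the compared groups. H3K9ac and H3K4me3 were fitted with every group of their table, which lends the spread of the replicated groups to those with 1 library. The alleles were compared within libraries, over regions that held 20 or more allele counts. CPM are counts scaled to the TMM-adjusted library total in regions. Alternatives were other scalings, no filter, DESeq2 1.42.0, other allele count minimums, and each library left out. With an ATAC library of KI or B6 left out, 1 library remained in its group. Calls in such fits rest on the spread of the other group alone. Overlap meant at least 1 bp. Regions were matched to genes in Python 3.11.15, sequences were read with samtools 1.23.1 from mm10 or from the RefSeq promoter table, and the test scripts were tested on simulated data. Every one of the 7 genes is described, and other genes are named where their strongest promoter region passed a test or a peak lay at their promoter. The genes and lists were chosen with earlier results of these data known. The labels do not tie replicates to separate animals, and the p-values therefore reflect the spread between libraries, which may be technical.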

Additional observations from a re-analysis of the deposited data

How the results depend on the processing

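Most results kept their direction and their side of the threshold. With the library series as a replicate block, 1224 regions passed in Hells ATAC (363 without it) and still 0 of the 7 genes; Stra8's second region was then at 0.063 and Smc1b at 0.032. Among the regions of the 7 genes, H3K9ac in KI over B6 had 1 that passed, 0 with library size alone and 2 with DESeq2. H3K9ac in Spo11/Spo11 had 16 calls over the table with DESeq2, and H3K4me3 in Spo11/Spo11 had 5. In the F1, 1 region of the 7 genes passed at a minimum of 10 allele counts, against 2 at 20.

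Leaving out 1 library at a time gave 0 to 6 calls among the 7 genes in KI over B6 ATAC (6499 to 18809 over the table), 0 in Hells ATAC (0 to 627), 0 to 7 in H3K9ac of KI (0 to 50946), 0 to 8 in H3K9ac of Spo11/Spo11 (0 to 32841), 0 to 1 in H3K4me3 of CKO over wt (6897 to 12738), 0 to 1 against all libraries with HELLS (11505 to 31336) and 0 in H3K4me3 of Spo11/Spo11 (0 to 2).

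Some uncalled values changed sign, and the cause was not tested. With library size alone, the region inside Stra8 was at 0.022 in KI over B6 ATAC, Meioc and Smc1b at −0.10 in H3K4me3 of CKO over wt, and Stra8 at −0.12 and Rec8 at −0.10 against all libraries with HELLS. Rad21l was at 0.050 in H3K4me3 of CKO over wt with RLE scaling and with DESeq2. In H3K9ac of KI and B6 alone, Rad21l was at 0.011 and Stra8 at 0.047. Stra8 was at −4.3e-05 in H3K4me3 of Spo11/Spo11 without the filter, and Meioc in the F1 at 0.0014 with each allele scaled by its own total.

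With 1 library left out, the ranges that cross 0 were, in KI over B6 ATAC, −0.36 to 0.087 for Stag3, −0.44 to 0.32 for Meioc and −0.40 to 0.37 inside Stra8. In Hells ATAC they were −0.39 to 0.025 for Stag3, −0.20 to 0.37 and −0.49 to 0.15 for the Stra8 regions, −0.24 to 0.063 inside Stra8, −0.71 to 0.34 inside Meioc, −0.37 to 0.15 for Rec8, −0.43 to 0.030 for Smc1b and −0.29 to 0.044 for Ythdc2. In H3K9ac they were −0.092 to 0.047 for Stra8 in KI and −0.29 to 1.36 for Smc1b site 2 in Spo11/Spo11. In H3K4me3 of CKO over wt they were −0.11 to 0.081 for Rad21l, −0.0054 to 0.39 for Stag3, −0.081 to 0.20 for Meioc and −0.035 to 0.18 for Smc1b; against all libraries with HELLS −0.15 to 0.037 for Rad21l, −0.36 to 0.026 for Stag3, −0.094 to 0.10 for Stra8, −0.11 to 0.10 for Rec8 and −0.17 to 0.041 for Smc1b; and in Spo11/Spo11 −0.20 to 0.051 for Stag3, −0.0074 to 0.0073 for Stra8, −0.12 to 0.059 for Rec8 and −0.031 to 0.065 for Smc1b. In the F1, where the libraries were taken singly, they were −0.34 to 0.26 for Rad21l, −0.22 to 0.077 for Stra8 and −0.083 to 0.041 for Meioc. Depth limits what the F1 shows at the Smc1b sites, which held 5 to 21 counts per allele in H3K9ac.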
